A study of Homo sapiens with 9 samples.

Results

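The immediate early genes described here are FOS, FOSB, JUN, JUNB, JUND, EGR1, IER2, DUSP1, ZFP36 and ATF3, chosen by name. All 10 symbols were matched to an Ensembl identifier among the 57338 genes of the deposited table. Their RNA was measured in 9 libraries that the labels give as HEK293T cells, a line from human embryonic kidney that carries the SV40 large T antigen. By the labels and the study's methods the cells received a vector with EGFP but no protamine (empty vector), with human protamine 1 fused to EGFP (hPRM1) or with human protamine 2 fused to EGFP (hPRM2), and 3 days later those with a high EGFP signal were sorted, with 3 libraries per group. By their labels all 3 groups therefore shared the transfection, the EGFP and the sort, and no untransfected cells were analysed here. Protamines are small arginine-rich proteins that replace histones in the sperm nucleus, and the study asked how their expression changes RNA levels in a somatic cell. As the markers below show, that question can be put to these data for hPRM2 only.

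Immediate early genes are transcribed within minutes of a stimulus from factors that are already present in the cell, without new protein synthesis. Growth factors and stress act through the ERK, JNK and p38 kinases on SRF with its ELK partners, on CREB and ATF proteins and on existing Jun protein at their promoters. The resulting Fos and Jun proteins pair through leucine zippers into AP-1, whereas DUSP1 removes the phosphates from the kinases and ZFP36 promotes the decay of mRNAs with AU-rich 3′ ends, which keeps the response short.

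The libraries labelled hPRM1 stood apart from the other 6. PRM2 reached 36130 to 71220 RPKM (reads per kilobase of gene, scaled to the reads of the library) in the hPRM2 libraries and was listed at 0 in the other 6, whereas PRM1 was listed at 0 in all 9, including those labelled hPRM1. In the libraries labelled hPRM1, the summed level of 4 haemoglobin genes was 2060000 to 2266000 RPKM against at most 17.98 in the other libraries, and 6 of 7 erythroid markers, 10 of 10 neutrophil and monocyte markers, 10 of 10 lymphocyte markers and 4 of 5 platelet markers were at 1 RPKM or more in every library. The summed neutrophil and monocyte markers were at 6429 to 7477 RPKM against at most 5.41 RPKM elsewhere, and the summed lymphocyte markers at 664.6 to 895.4 RPKM against at most 70.6 RPKM. The lymphocyte sum in hPRM2 was LCK alone, at 33.3 to 70.6 RPKM. That was above its 21.7 to 29.5 RPKM in the libraries labelled hPRM1. The summed level of 10 HEK293T markers was 7.62 to 11.9 RPKM in the libraries labelled hPRM1 against 1661 to 5394 RPKM in the other 6 libraries, and 6 of the 10, among them LIN28B, PAX2 and NEFM, were at 0 in all 3. Most of the sum in the other 6 was CKB, at 1311 to 5061 RPKM. PAX2 was also at most 0.21 RPKM in hPRM2, and NEFL, also among the 6, was at 0 in replicate 1 of both other groups. The library names in the sample descriptions also belong to another number series for these 3 than for the other 6, so the library series and the condition cannot be told apart. The group is called "labelled hPRM1" throughout, its differences are differences between libraries as labelled and not effects of protamine 1, and the comparison of hPRM2 with the empty vector does not use it. The part of these markers in the results on the immediate early genes was not tested, and in bulk RNA fewer cells of a type and less RNA per cell cannot be told apart.

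The depth behind the values differed between the groups. The reads counted on genes, estimated from the smallest step in the RPKM values, were 7930000 to 10790000 in the empty vector libraries, 4210000 to 5860000 in those labelled hPRM1 and 1270000 to 2650000 in hPRM2. JUN, JUNB, EGR1 and DUSP1 have 1 annotated transcript each, so that their RPKM values could be turned back into whole reads, with a largest distance from a whole number of 1.09e-11 reads. JUN rested on 6067 to 12321 reads per empty vector library, 39 to 70 reads per library labelled hPRM1 and 1714 to 2399 reads per hPRM2 library. EGR1 rested on 442 to 842, 7 to 14 and 54 to 197 reads in the same order, JUNB on 283 to 327, 617 to 783 and 19 to 147 reads, and DUSP1 on 185 to 312, 126 to 148 and 25 to 44 reads. An EGR1 value of 0.83 RPKM from 14 reads had an exact Poisson 95% interval of 0.45 to 1.39 RPKM, and intervals of this kind cover counting error only. The labels do not say whether the 3 libraries of a group came from separate cultures, so the p-values measure the spread between libraries, which may be technical.

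As a group the members had short gene models. In GENCODE 29 (GRCh38) the median span of the 10 genes was 3498 bases against 27293 bases for the 19659 protein-coding genes of the table, and 8 of the 10 spanned under 5000 bases against 13.7% of protein-coding genes. The longest was ATF3, which spans 55444 bases on chromosome 1 from 212565334 to 212620777. The longest transcript of JUN, JUNB, JUND and IER2 has 1 exon, as for 6.51% of protein-coding genes. FOSB, JUNB, JUND, IER2 and ZFP36, 5 of the 10, lie on chromosome 19. FOSB overlaps ERCC1 and JUNB overlaps HOOK2 on the opposite strand, and IER2 and DUSP1 each overlap 1 unnamed gene there. The strand setting of the counting is not given in the sources used here, so reads of these 4 genes and of their opposite-strand partners cannot be told apart.

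The promoters of the members are shown because they carry the sites through which the upstream factors act. A link between these sites and the values was not tested. RefSeq sequences (GRCh38.p14, 250 bases before to 50 after the start) were found for all 10 members and searched on both strands for the CArG box (the site of SRF, 2 C, 6 A or T, 2 G), TGACNTCA (the site of CREB, ATF and Jun proteins), TGANTCA (the site of AP-1), GCGNGGGCG (the site of EGR1) and TATAAA (the TATA box). No 2 matches overlapped in any member. Capitals mark the matches below, and each sequence is written 5′ to 3′ on the strand of its gene.

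JUN, minus strand, chr1:58784096-58784125: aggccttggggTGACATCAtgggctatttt

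ATF3, plus strand, chr1:212565257-212565333: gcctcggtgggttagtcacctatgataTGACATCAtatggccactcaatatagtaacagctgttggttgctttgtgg

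EGR1, plus strand, chr5:138465329-138465478: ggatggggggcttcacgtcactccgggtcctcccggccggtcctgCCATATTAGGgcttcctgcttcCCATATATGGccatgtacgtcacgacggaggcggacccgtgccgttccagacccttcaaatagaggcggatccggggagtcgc

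DUSP1, minus strand, chr5:172771196-172771345: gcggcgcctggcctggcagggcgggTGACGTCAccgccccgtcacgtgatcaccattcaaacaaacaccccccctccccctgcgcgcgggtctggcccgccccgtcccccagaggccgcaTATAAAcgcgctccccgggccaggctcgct

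JUNB, plus strand, chr19:12791336-12791485: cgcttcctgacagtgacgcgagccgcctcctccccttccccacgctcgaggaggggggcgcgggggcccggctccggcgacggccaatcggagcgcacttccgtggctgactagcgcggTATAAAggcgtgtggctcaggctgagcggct

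ZFP36, plus strand, chr19:39406697-39406812: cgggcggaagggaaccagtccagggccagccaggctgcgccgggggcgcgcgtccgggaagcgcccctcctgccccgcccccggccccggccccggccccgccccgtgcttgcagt

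TGACNTCA occurred in 5 of the 10 members and in 7.72% of 35116 promoters. JUN and ATF3 had the same letters, 67 and 123 bases before the start, DUSP1 and JUND had the full palindrome, 125 and 200 bases before the start, and ZFP36 had its match after the start. EGR1 alone had CArG boxes, a pair 105 and 83 bases before the start, where 1.29% of promoters had at least 1 CArG box. It also had a GCGNGGGCG match 198 bases before the start (9.43% of promoters). TATAAA was found in FOS, FOSB, JUNB, DUSP1 and the second promoter of ATF3, against 11.5% of promoters, and TGANTCA in none of the 10 against 7.71%. A match is a description of the letters and not a binding site, and a box outside these 300 bases or with other letters, such as those known upstream of FOS, is not seen. Only 30 bases are printed for JUN, whose RefSeq start lies inside the single exon of its GENCODE model.

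The 3′ ends were searched in the same way, since the libraries were read from the ends of polyadenylated transcripts and since AU-rich ends are bound by ZFP36. TATTTAT occurred in the last 500 bases of the longest coding transcript in 6 of the 10 members, against 13.8% of 19246 coding genes. ZFP36 had 3 matches, FOS and DUSP1 had 2 each, and JUN, JUND and ATF3 had 1 each. The first match of each of the 3 genes with the most is shown with its flanks.

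FOS: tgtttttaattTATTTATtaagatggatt

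DUSP1: agaatatacctTATTTATttttgtgtagg

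ZFP36: aatgggcccttTATTTATgacgactttat

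FOSB, JUNB, EGR1 and IER2 had none in this window. JUN and ZFP36, which both had matches, differed in opposite directions in the libraries labelled hPRM1 below. A part of the motif in the levels was not tested.

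In the empty vector libraries JUN led the members. Levels are compared between genes in RPKM, that is per length, although reads from 3′ ends do not scale with length and the division lowers the values of long transcripts. JUN was at 303.9 ± 76.4 RPKM (SD, n = 3), ATF3 at 158.5 ± 55.3, JUND at 114.0 ± 81.9 and IER2 at 85.1 ± 10.2 RPKM. The middle of the order was EGR1 at 23.4, JUNB at 21.4 and DUSP1 at 16.4 RPKM, and FOS at 8.23, FOSB at 5.29 and ZFP36 at 4.35 RPKM came last. The libraries of JUN did not overlap with those of ATF3, nor those of IER2 with EGR1 or DUSP1 with FOS, and the other neighbours in this order overlapped. Among the 14901 genes with at least 1 RPKM in at least 3 of the 9 libraries, ranked within each library, JUN stood at the 94.7th to 96.5th percentile and ATF3 at the 89.6th to 94.5th, while ZFP36 stood at the 30.9th to 41.1st.

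**Figure D1:**
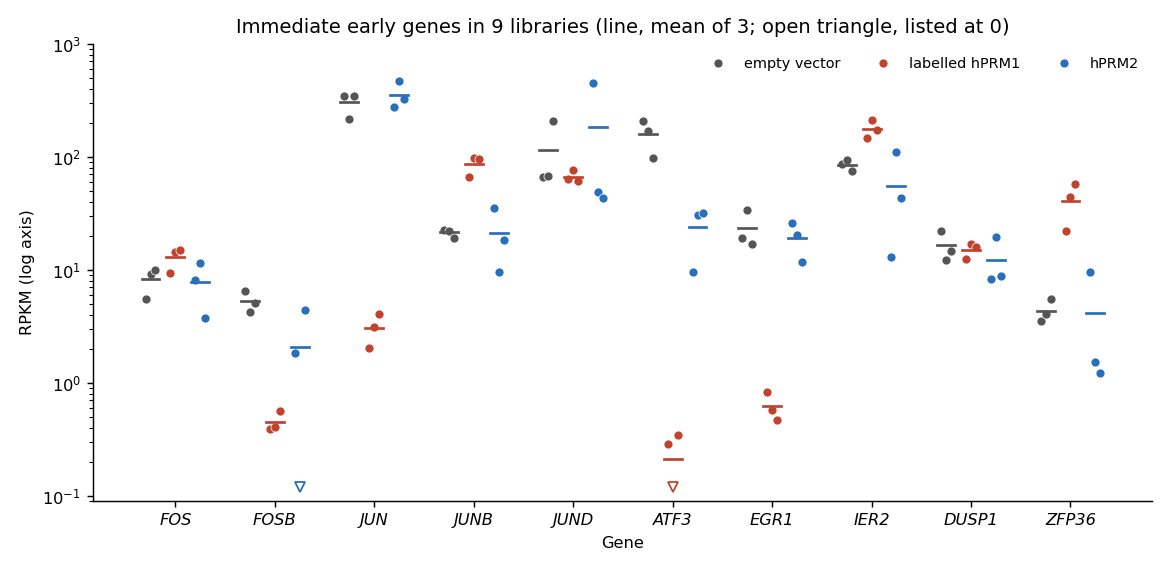
RPKM on a log axis (vertical) of the 10 immediate early genes (horizontal) in the 3 libraries each of empty vector, labelled hPRM1 and hPRM2; points are libraries, lines the mean of 3, and open triangles libraries listed at 0. JUN, ATF3, EGR1 and FOSB lie far below the empty vector in the libraries labelled hPRM1, and JUNB, IER2 and ZFP36 lie above it.

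The libraries labelled hPRM1 differed from the empty vector in 7 of the 10 members, with 3 higher and 4 lower. JUNB, IER2 and ZFP36 were higher, JUN, ATF3, EGR1 and FOSB were lower, and FOS, JUND and DUSP1 were not called. Across all 13588 genes tested, 12.9% were called higher and 62.5% lower, so that 3 of 10 higher stood above and 4 of 10 lower stood below these shares. The median log2 fold change of all genes tested was -1.72, that of the 10 members -0.32. A call was a limma adjusted p of at most 0.05 and a change of at least 2-fold on log2(RPKM + 1), a scale that understates the change of low genes. With the per-gene test of the study's methods none of the 10 passed an adjusted p of 0.05, although 791 genes were called higher and 3723 lower by it, and the lowest adjusted values of the members were 0.0515 for FOSB, 0.0546 for JUN and 0.0555 for JUNB.

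The Jun family split. JUN, the founding AP-1 subunit and a strong activator, was at 348.8, 215.6 and 347.2 RPKM in the empty vector libraries and at 2.02, 3.10 and 4.07 RPKM in those labelled hPRM1. All 3 latter libraries lay far below, and the log2 fold change was -6.23 ± 0.29 (SE, n = 3 against 3, limma adjusted p = 6.52e-06), a 99.1-fold difference of the means. JUNB, a Jun protein that can restrain JUN at shared sites, went the other way, from 22.7, 22.3 and 19.3 RPKM to 67.0, 98.5 and 95.4 RPKM, with no overlap. Its log2 fold change was 1.95 ± 0.22 (adjusted p = 0.000179, limma), or 4.06-fold by the means. JUND, which is expressed in resting cells more steadily than its relatives, was at 65.9, 67.6 and 208.5 RPKM in the empty vector group, against 63.3, 76.1 and 60.7 RPKM for the label hPRM1. These overlapped and the difference was -0.55, with a 95% interval of -1.65 to 0.55.

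Of the Fos family, which binds DNA as a partner of Jun proteins, FOS and FOSB differed. FOS was at 5.56, 9.24 and 9.89 RPKM in the empty vector group, against 9.46, 14.4 and 14.8 RPKM for the label hPRM1, with overlap and a log2 fold change of 0.60 ± 0.29 (adjusted p = 0.1004, limma). FOSB was at 6.54, 4.21 and 5.12 RPKM against 0.39, 0.40 and 0.56 RPKM, without overlap, and its log2 fold change was -2.10 ± 0.23 (adjusted p = 0.000179, limma). The FOSB value lay near the median of all genes and was -0.39 relative to it.

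ATF3, a stress-induced ATF protein that pairs with Jun, had the lowest value of the 10. It was at 207.0, 170.3 and 98.3 RPKM in the empty vector libraries and at 0.29, 0 and 0.34 RPKM in those labelled hPRM1, and the log2 fold change was -6.99 ± 0.32 (adjusted p = 6.03e-06, limma). EGR1, a zinc finger factor with CArG boxes in its promoter, fell from 19.3, 34.1 and 16.8 RPKM to 0.83, 0.58 and 0.46 RPKM, again without overlap. Its log2 fold change was -3.85 ± 0.31 (adjusted p = 4.20e-05, limma), a 37.6-fold difference of the means.

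The remaining members are regulators that are not AP-1 subunits. IER2, a nuclear protein with a poorly defined role in transcription, was at 86.0, 94.8 and 74.5 RPKM in the empty vector group, against 146.0, 210.4 and 171.9 RPKM for the label hPRM1. The groups did not overlap and the log2 fold change of 1.03 ± 0.20 (adjusted p = 0.00262, limma) was just past the 2-fold threshold, which it missed without empty vector replicate 3 (0.94) and without labelled hPRM1 replicate 2 (0.90). It was also lost with a pseudocount of 5 (0.998) and, at the same fold change, in the fit of all 9 libraries (adjusted p = 0.184, limma). ZFP36, the mRNA decay protein tristetraprolin, rose from 3.53, 4.03 and 5.49 RPKM to 21.99, 43.8 and 57.4 RPKM, a log2 fold change of 2.89 ± 0.38 (adjusted p = 0.000405, limma). DUSP1 was at 22.3, 12.2 and 14.8 RPKM against 12.3, 16.9 and 16.0 RPKM, which overlapped, and the difference of -0.09 had a 95% interval of -0.75 to 0.57.

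**Figure D2:**
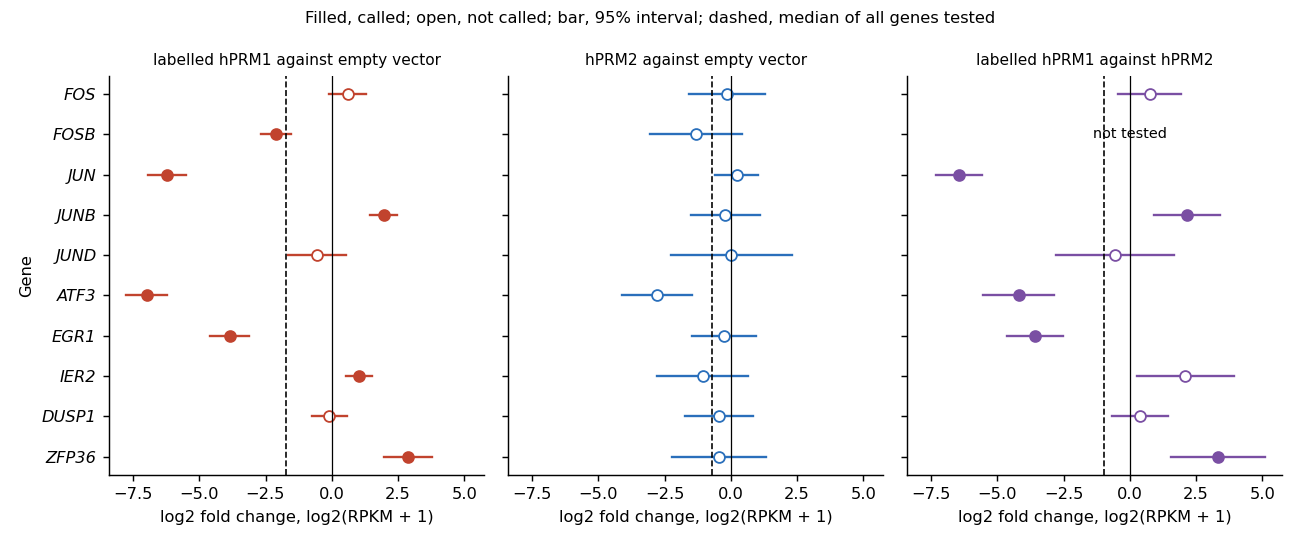
Log2 fold change on log2(RPKM + 1) (horizontal) with its 95% interval for each member (vertical) in the 3 comparisons; filled points were called, open points were not, and the dashed line is the median of all genes tested. For hPRM2 against the empty vector the interval of ATF3 at -2.78 lies below 0 and those of the other 9, among them FOSB at -1.33 and IER2 at -1.07, include 0.

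The directions of the middle members depended on the scaling of the libraries. With median-of-ratios rescaling, which removes most of the shift of all genes (median -0.12), 6 members were higher and 3 lower. Quantile normalization gave the same counts. Among all genes tested, 28.89% were higher and 29.03% lower with median-of-ratios rescaling. The shares with quantile normalization were 25.05% higher and 34.38% lower. FOS at 2.56, JUND at 1.61 and DUSP1 at 1.96 were then called higher after median-of-ratios rescaling, with JUND and DUSP1 changing sign, and FOSB at -0.82 was no longer called. JUN at -4.26, ATF3 at -5.65 and EGR1 at -2.31 stayed lower and JUNB at 4.06, IER2 at 3.20 and ZFP36 at 4.77 stayed higher. Of all genes tested, 50.1% of the calls were lower after this rescaling against 82.9% on the deposited values.

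**Figure D3:**
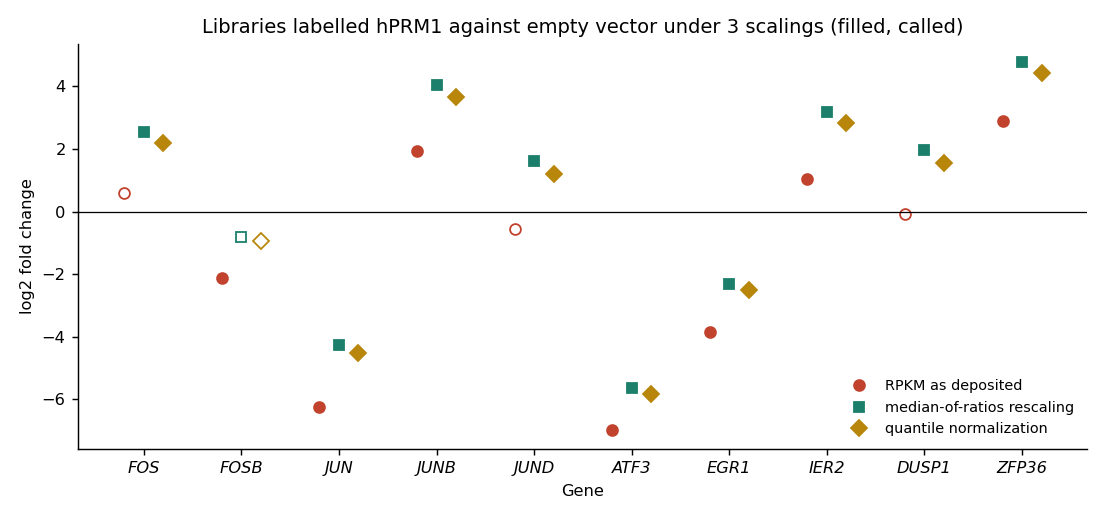
Log2 fold change of the libraries labelled hPRM1 against the empty vector (vertical) for each member (horizontal) on the deposited RPKM and after 2 rescalings; filled symbols were called. JUN, ATF3 and EGR1 lie below 0 and JUNB, IER2 and ZFP36 above 0 under each of the 3, whereas JUND and DUSP1 cross 0.

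The order of the members within each single library labelled hPRM1 does not depend on the scaling between libraries. By the means of the 3 libraries, IER2 was first at 176.1 ± 32.4 RPKM (SD, n = 3). JUNB at 87.0 ± 17.3, JUND at 66.7 ± 8.24 and ZFP36 at 41.1 ± 17.9 RPKM followed. JUN, first in the empty vector, was in seventh place at 3.07 RPKM, followed by EGR1 at 0.62, FOSB at 0.45 and ATF3 at 0.21 RPKM. In this order the libraries of JUNB overlapped with those of JUND, DUSP1 with FOS and EGR1 with FOSB, and the other neighbours did not overlap. By rank within the library, IER2 stood at the 97.7th to 98.1st percentile and ZFP36 at the 87.5th to 94.5th, whereas ATF3 stood at the 7.46th to 24.1st. FOS, which was not called on the deposited values, stood at the 76.5th to 82.6th percentile against the 39.3rd to 53.3rd in the empty vector. FOS, JUNB, JUND, IER2, DUSP1 and ZFP36 ranked higher among the genes of their own libraries in all 3 libraries labelled hPRM1 than in any empty vector library, JUND narrowly (at least the 94.85th against at most the 94.49th percentile). The percentile scale itself differed between the groups. In empty vector replicate 2, FOS at 9.24 RPKM stood at the 49.1st percentile. In labelled hPRM1 replicate 1, FOS at 9.46 RPKM stood at the 76.5th. The share of all ranked genes with such a gain was not computed, so the gains cannot be read as particular to the members. In hPRM2 the ranges were the 37.4th to 63.2nd percentile for FOS, the 66.1st to 91.7th for IER2, the 21.7th to 61.6th for ZFP36 and the 61.6th to 78.7th for ATF3.

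Shares of the summed RPKM of the 10 members compare them without reference to other genes, but they add up to a whole, so that a lower share of JUN and ATF3 raises the others. JUN made up 34.0% to 44.3% of the sum in the empty vector libraries and 0.62% to 0.97% in those labelled hPRM1, and ATF3 12.3% to 26.8% and at most 0.089%. IER2 made up 9.32% to 14.9% and 40.8% to 45.3%, JUNB 2.41% to 3.51% and 20.7% to 22.6%, and ZFP36 0.45% to 0.69% and 6.79% to 13.6%. FOS (0.71% to 1.46% and 2.92% to 3.52%) and DUSP1 (1.85% to 2.83% and 3.64% to 3.81%) also had higher shares without overlap, although neither was called. In hPRM2 JUN made up 32.7% to 66.2%, ATF3 1.14% to 6.47%, IER2 1.54% to 15.5% and JUNB 1.32% to 4.2%. The sum itself was 634.4 to 800.0 RPKM in the empty vector libraries, 323.7 to 464.2 RPKM in those labelled hPRM1 and 489.5 to 840.4 RPKM in hPRM2.

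**Figure D4:**
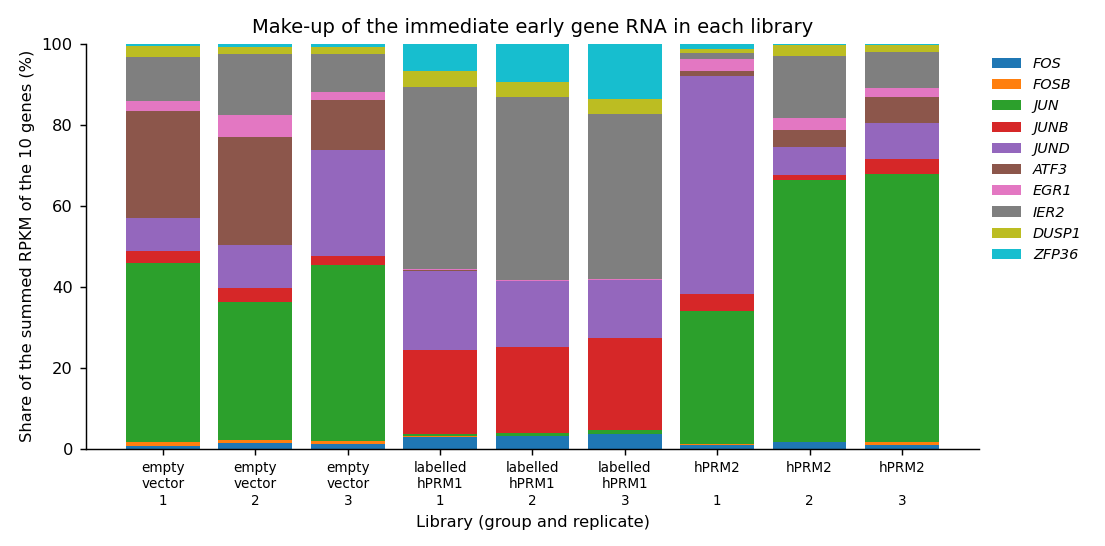
Share of the summed RPKM of the 10 members in percent (vertical, stacked) in each of the 9 libraries (horizontal). JUN and ATF3 fill most of the empty vector bars, IER2, JUNB and JUND most of the bars labelled hPRM1, and JUND takes 54.0% of hPRM2 replicate 1.

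In hPRM2 cells none of the 10 members was called against the empty vector by limma, where 1.36% of 13126 genes were called higher and 1.37% lower. At an unadjusted p under 0.05 there was 1 member, ATF3, beside 3351 of all 13126 genes, and the per-gene test of the study's methods called 0. ATF3 was at 9.56, 30.5 and 31.7 RPKM in the hPRM2 libraries against 207.0, 170.3 and 98.3 RPKM, and the groups did not overlap. Its log2 fold change of -2.78 ± 0.56 had an adjusted p of 0.0527 with limma, and was called with a fit of all 9 libraries (adjusted p = 0.0111), with quantile normalization (adjusted p = 0.0496) and without hPRM2 replicate 1 (-2.25, adjusted p = 0.0215). Over the alternatives its adjusted p ranged from 0.0111 to 0.209.

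The other 9 members had overlapping groups. JUN was at 274.9, 466.0 and 323.9 RPKM in the hPRM2 libraries, a log2 difference of 0.22 with a 95% interval of -0.58 to 1.03, and EGR1 was at 25.7, 20.4 and 11.6 RPKM, a difference of -0.27 with an interval of -1.48 to 0.94. These were the members with the narrowest intervals. The values of the others varied more between the hPRM2 libraries than between those of the empty vector. JUND was at 454.1 RPKM in hPRM2 replicate 1 and at 49.2 and 43.2 RPKM in replicates 2 and 3, a range of 10.5-fold. IER2 was low in that same replicate 1, at 12.9 RPKM against 111.5 and 42.8 RPKM, and ZFP36 was high there, at 9.57 RPKM against 1.53 and 1.21 RPKM. JUNB was at 35.3, 9.50 and 18.2 RPKM, FOS at 8.10, 11.5 and 3.71 RPKM, DUSP1 at 8.31, 19.5 and 8.79 RPKM, and FOSB at 1.83, 0 and 4.41 RPKM. The 95% interval of JUND ran from -2.25 to 2.29 and that of IER2 from -2.79 to 0.66. A 2-fold difference in either direction for JUND, or a 2-fold lower level for IER2, was therefore not excluded at this depth and spread. The intervals above also included a 2-fold higher level for JUN and a 2-fold lower level for EGR1.

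Set directly against hPRM2, the libraries labelled hPRM1 had 2 members higher and 3 lower of the 9 that passed the filter on low values, where 16.0% of 11756 genes were called higher and 37.0% lower. FOSB did not pass the filter. JUNB (2.16 ± 0.51, adjusted p = 0.0126, limma) and ZFP36 (3.33 ± 0.73, adjusted p = 0.00979, limma) were higher. JUN (-6.45 ± 0.36, adjusted p = 9.87e-05, limma), ATF3 (-4.20 ± 0.55, adjusted p = 0.00135, limma) and EGR1 (-3.58 ± 0.43, adjusted p = 0.000904, limma) were lower. This comparison shares the libraries labelled hPRM1 with the one above and is not a second measurement of them. JUNB was no longer called without labelled hPRM1 replicate 2 (2.06, adjusted p = 0.0559) or replicate 3 (2.08, adjusted p = 0.0560, limma). IER2 at 2.10 ± 0.75 had an adjusted p of 0.0559 with limma and was called without hPRM2 replicate 1 (1.32, adjusted p = 0.0399) or replicate 2 (2.83, adjusted p = 0.0114).

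The balance of Fos to Jun RNA was computed from the members alone, as the sum of FOS and FOSB over the sum of JUN, JUNB and JUND, because AP-1 dimers of a Fos with a Jun protein bind DNA more tightly than Jun dimers. The log2 ratio was -5.18, -4.51 and -5.26 in the empty vector libraries, -3.75, -3.59 and -3.38 in those labelled hPRM1 and -6.27, -5.51 and -5.57 in hPRM2. The 3 groups did not overlap. The means differed by 1.41 between labelled hPRM1 and empty vector, by -0.80 between hPRM2 and empty vector and by 2.21 between the 2 protamine labels, each with a two-sided exact permutation p of 0.1, the smallest that 3 against 3 allows and above the threshold of 0.05. In hPRM2 the lowest ratio, of replicate 1, came with the high JUND value of that library. With FOS over JUN alone, the difference of the libraries labelled hPRM1 was 7.32, and that of hPRM2 was -0.41 with an exact p of 0.6.

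**Figure D5:**
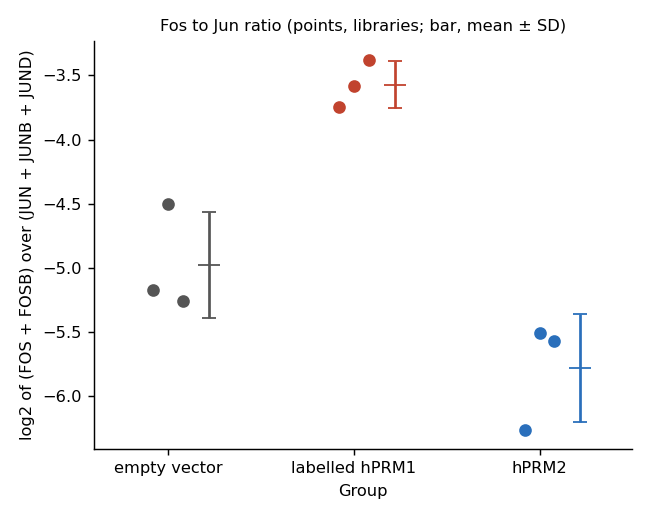
Log2 of the summed RPKM of FOS and FOSB over that of JUN, JUNB and JUND (vertical) for the 3 libraries of each group (horizontal), with the mean and SD beside the points. The libraries labelled hPRM1 lie between -3.75 and -3.38 and those of hPRM2 between -6.27 and -5.51, above and below the empty vector.

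Genes of the same network were read from lists of 37 other immediate early genes, 24 other leucine zipper factors, 14 feedback regulators and 30 upstream kinases and factors. In the libraries labelled hPRM1, 6 of the 31 other immediate early genes tested were higher and 14 lower, with a median log2 fold change of -0.93. Of all genes tested, 12.9% were higher and 62.5% lower, with a median of -1.72. KLF2, a zinc finger factor of endothelial cells and leukocytes, was at 73.9, 165.9 and 126.4 RPKM against 1.21, 4.83 and 6.92 RPKM (4.64, adjusted p = 0.000222, limma), with at most 1.33 RPKM in hPRM2. RGS2, a brake on G protein signals, was higher by 3.18 (adjusted p = 8.80e-05, limma) and KLF6, a related zinc finger factor, by 2.07 (adjusted p = 0.000440, limma). ID1, HES1 and CCN1 were lower. HES1, a target of Notch, was at 13.5, 11.97 and 6.48 RPKM against 231.8, 226.5 and 282.4 RPKM, and CCN1, a matrix protein and target of SRF and YAP, was listed at 0 in all 3 libraries against 16.9 to 23.5 RPKM. In hPRM2 HES1 was at 269.3 to 741.5 RPKM and CCN1 at 0.74 to 6.55 RPKM.

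Among the other leucine zipper factors, 5 of 22 tested were higher and 11 lower. CEBPD, a C/EBP factor of myeloid cells and acute inflammation, was at 86.3, 89.7 and 99.9 RPKM against 3.08, 4.49 and 2.36 RPKM, a log2 fold change of 4.46 (adjusted p = 9.90e-06, limma). BATF, an AP-1 factor of lymphocytes, was at 6.03 to 9.76 RPKM and was listed at 0 in all 6 libraries of the other groups, and FOSL2, the Fos relative, was higher by 2.09. ATF4, the main factor of the integrated stress response, was at 34.3, 27.0 and 22.3 RPKM against 329.5, 342.3 and 384.6 RPKM (-3.63), and BATF3 (-4.46) and CEBPG (-3.81), a partner of ATF4, were lower with it. In hPRM2 ATF4 was at 258.6 to 316.7 RPKM and CEBPD at 0 to 6.52 RPKM. FOSL1 was not tested because it did not pass the filter.

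The feedback regulators and the kinases moved in both directions as well. Of 10 feedback regulators tested, 3 were higher and 4 lower. The higher ones were DUSP6, the phosphatase of ERK (3.72), and the relatives of ZFP36, ZFP36L1 (3.06) and ZFP36L2 (2.45), so that all 3 genes of the ZFP36 family tested were higher. SPRY1 (-3.78) and SPRY2, inhibitors of receptor tyrosine kinase signals, and DUSP8 (-2.47) were lower, SPRY2 being listed at 0 in all 3 libraries, and DUSP8 was not called after median-of-ratios rescaling (-0.83). Of 30 upstream kinases and factors, 3 were higher and 15 lower. MAP2K3, a kinase of p38, was at 195.9, 220.5 and 227.1 RPKM against 54.1, 56.1 and 58.9 RPKM (1.91), with 20.3 to 35.4 RPKM in hPRM2, and RPS6KA1 was higher by 1.83, whereas HRAS (-3.63), NRAS (-3.62) and the JNK gene MAPK9 (-3.54) were lower. The shares of lower calls lay below the 62.5% of all genes tested in each of the 4 lists, the lowest being 40.0% for the feedback regulators. After median-of-ratios rescaling the 4 lists had 16, 10, 5 and 13 higher and 6, 5, 2 and 4 lower in the order above. The balance of each list therefore turned with the scaling. All genes tested also shifted with this rescaling, from 12.88% higher and 62.49% lower to 28.89% higher and 29.03% lower. The shift was therefore not confined to these lists.

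In hPRM2 none of the genes of these 4 lists was called by limma, of 32, 22, 10 and 30 tested, and 9, 5, 1 and 9 had an unadjusted p under 0.05, beside 3351 of all 13126 genes. Their median log2 fold changes were -0.33, -0.94, -0.21 and -1.05, beside -0.72 for all genes tested. Set against hPRM2, the libraries labelled hPRM1 had 8 higher and 9 lower of 27 other immediate early genes, 4 and 4 of 21 leucine zipper factors, 3 and 3 of 8 feedback regulators and 2 and 3 of 27 kinases and factors, beside 16.0% higher and 37.0% lower of all genes tested. After median-of-ratios rescaling the counts were 12 and 2, 10 and 2, 5 and 1, and 15 and 0, beside 31.1% higher and 18.3% lower of all genes tested. MYC (-3.09), an early growth gene, was lower here, and CEBPB (2.97), the partner of CEBPD, was higher. MAFG (-1.79) and DUSP16 (-1.62) were lower on the deposited values but not called after either rescaling, where the value of MAFG was 0.07 after median-of-ratios rescaling.

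The members did not form a single block across the 9 libraries. Pearson's r of log2(RPKM + 1) was 0.96 for JUN with EGR1, 0.89 for JUN with ATF3, 0.96 for JUNB with ZFP36 and -0.92 for JUN with JUNB. The points share the libraries and 3 of them are those labelled hPRM1, so that these values mostly restate the difference between groups. Over the 6 libraries of empty vector and hPRM2, JUN with EGR1 was -0.56, JUN with ATF3 -0.17, JUNB with ZFP36 0.79 and JUN with JUNB -0.72. JUND with ZFP36 reached 0.92 over these 6, with hPRM2 replicate 1 high in both.

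The genes most like FOS were sought outside the members only. Over 9 libraries the 5 highest values of r among 14901 genes were those of RARA (0.94), PPM1F (0.89), SLC25A36 (0.87), DNAJB2 (0.87) and TMEM164 (0.87). RARA, a receptor of retinoic acid, was at 2.80, 11.99 and 15.4 RPKM in the empty vector group, 13.7, 24.1 and 21.2 RPKM under the label hPRM1 and 11.8, 9.76 and 1.78 RPKM in hPRM2. Over the 6 libraries of empty vector and hPRM2 they were EXOSC10-AS1 (0.97), BAP1 (0.97), SLC25A36 (0.94), ZC3H7A (0.94) and TBCK (0.94), so that SLC25A36 was in both lists. With so few libraries the highest values of so many genes are high for several of them, and the lowest value of FOS and of RARA came from the same library, hPRM2 replicate 3.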

How the data were processed

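A library kit for the 3′ ends of mRNA (QuantSeq) was used. The authors ran the nf-core/rnaseq pipeline with Cutadapt for trimming, STAR and Salmon, removed mitochondrial genes and deposited RPKM values, that is counts scaled to library reads and gene length, for 57338 genes. The labels' processing notes name hg38; the versions of the tools and the annotation are not given in the sources used here. Replicates were not pooled, counts were not used here, and 0 columns of values were left unused.

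The reads per library were estimated from the smallest step in RPKM of genes with 1 transcript in GENCODE 29, 600 to 20000 bases long, with 250 bases subtracted from the length. Tests were run with limma 3.58.1 under R 4.3.3 (lmFit, eBayes with trend and robust) on log2(RPKM + 1), each comparison on its own 6 libraries, over genes with at least 1 RPKM in at least 3 of them, with Benjamini-Hochberg adjustment over all genes tested. Genes with an adjusted p of at most 0.05 and at least a 2-fold change were called. The code was tested on simulated data. The Fos to Jun ratio was compared with two-sided exact permutation tests. The remaining steps used Python 3.11.15 (SciPy 1.17.1, numpy 2.4.6, pandas 2.3.3), and figures were made with matplotlib 3.10.9. Promoters came from RefSeq (GRCh38.p14) and transcript ends from GENCODE 29.

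Named genes were the 10 members, PRM1 and PRM2, from each of the 4 companion lists up to 3 called genes per direction and comparison with the largest change and no overlap between groups, and the 5 genes most correlated with FOS over 9 and over 6 libraries. Genes that could differ between individual people were not named. A further gene that the rule names is not reported here. FOSL1, ERCC1, HOOK2 and the markers LIN28B, PAX2, NEFM, NEFL, CKB and LCK fall outside this rule. The members, the lists and the tests were chosen with earlier results of these data known. Alternatives were pseudocounts of 0.1 and 5, no filter, a minimum of 10 RPKM, quantile normalization, median-of-ratios rescaling, fitting all 9 libraries together, blocking on the replicate number, no fold threshold, the per-gene test of the study's methods and leaving out each library.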

Additional observations from a re-analysis of the deposited data

How the results depend on the processing

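Of the alternative values of the members' log2 fold changes, 351 kept their direction and side of the thresholds, 24 changed sign, 16 passed the thresholds where the main value had not and 9 no longer passed. The cause of these changes was not tested. In the libraries labelled hPRM1 against the empty vector, JUND turned to 1.61 and DUSP1 to 1.96 with median-of-ratios rescaling and to 1.21 and 1.56 with quantile normalization, and DUSP1 to 0.14 without empty vector replicate 1 and 0.04 without labelled hPRM1 replicate 1. In hPRM2 against the empty vector, no value that changed sign had been called. Median-of-ratios rescaling gave 0.35 for FOS, 0.32 for JUNB, 0.26 for EGR1 and 0.070 for DUSP1, and quantile normalization gave 0.30 for FOS, 0.069 for JUNB and 0.11 for ZFP36. Without empty vector replicate 1 JUND was -0.26, without replicate 2 JUN was -0.0075, JUND -0.24 and EGR1 0.024, without hPRM2 replicate 1 JUND was -1.07, without replicate 2 JUNB was 0.24, and without replicate 3 FOS was 0.24 and EGR1 0.036. With each library left out the ranges were -0.46 to 0.24 for FOS, -0.0075 to 0.39 for JUN, -0.66 to 0.24 for JUNB, -1.07 to 0.61 for JUND and -0.50 to 0.036 for EGR1. In labelled hPRM1 against hPRM2, JUND was 1.34, 1.18 and 0.52 with median-of-ratios rescaling, with quantile normalization and without hPRM2 replicate 1, and -1.17 to 0.52 with each library left out. The range for DUSP1 in labelled hPRM1 against the empty vector was -0.26 to 0.14.

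The number of members called higher in the libraries labelled hPRM1 was 6 with both rescalings instead of 3, and the per-gene test of the study's methods called 0 higher and 0 lower. Of all genes tested, 28.9% were higher with median-of-ratios rescaling and 25.05% with quantile normalization. Leaving out each library gave 2 to 3 higher and 4 lower. In hPRM2 the number lower was 1 with quantile normalization and with the fit of all 9 libraries, and 0 to 1 when a library was left out. Against hPRM2, 5 were higher with both rescalings instead of 2, 0 were higher and 0 lower with the per-gene test, and leaving out a library gave 1 to 3 higher and 3 lower. Of all genes tested against hPRM2, 31.1% were higher with median-of-ratios rescaling and 26.5% with quantile normalization. The Fos to Jun differences were 1.27 to 1.65, -0.94 to -0.56 and 1.97 to 2.35 with each library left out, where the smallest exact p is 0.2, and FOS over JUN alone gave 7.32 and 7.73 for the libraries labelled hPRM1 against the empty vector and hPRM2.

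Same-numbered libraries had correlations of deviations between -0.081 and 0.11, and at most 1 of 3 pairs in a comparison passed 0.1. Such values cannot decide whether same-numbered libraries were prepared together. With the replicate block, 1783 genes were called higher and 8551 lower for the libraries labelled hPRM1 instead of 1750 and 8491, 49 and 8 for hPRM2 instead of 179 and 180, and 1797 and 4019 for the direct comparison instead of 1879 and 4355; among the members it changed IER2 in the direct comparison, which was then called (adjusted p = 0.0303, limma). In the 3 comparisons 1, 1 and 2 libraries of the first group correlated best with their own number. Over all genes, hPRM2 gave 10 to 810 higher and 2 to 1619 lower calls with a library left out, 0 and 9 with the per-gene test, 507 and 1618 with the fit of all 9 libraries and 72 and 17 without the filter. Without hPRM2 replicate 1 it gave 810 and 1619. Reads of 7 to 14 for EGR1 in the libraries labelled hPRM1 and 19 to 46 for JUNB in hPRM2 replicates 2 and 3 limit those values.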
